A study of Mus musculus with 32 samples.

Results

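The 8 genes Esm1, Apln, Aplnr, Cd34, Unc5b, Plvap, Robo4 and Adgrl4, taken here as markers of sprouting blood vessels, were followed through 32 mouse liver tumors by RNA sequencing. They were taken by name, with no threshold on their values, as 8 of the 54446 genes in the count tables, and all 8 had enough reads to be tested in every comparison. Low dose regorafenib, the treatment given in all 3 experiments, lowered Esm1 3.04-fold, Adgrl4 2.28-fold and Robo4 2.18-fold against vehicle and raised Cd34 1.46-fold, while Apln, Aplnr, Unc5b and Plvap did not pass the test. Of these 4 calls only that of Robo4 held whichever library was left out, those of Esm1, Cd34 and Adgrl4 being lost in 7, 14 and 15 of 20 such fits. Of 20 pan-endothelial genes 12 also fell, beside 1.04% of all genes, with a median log2 change of -1.19 over the list. Not all 8 genes followed that list in these tumors. Pearson r with its mean was 0.93 for Robo4, 0.82 for Adgrl4, 0.62 for Plvap and 0.56 for Esm1. It was 0.23 for Aplnr, 0.03 for Unc5b, 0.00 for Apln and -0.37 for Cd34.

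A new vessel grows out from an existing one behind a tip cell, an endothelial cell that extends filopodia, reads guidance cues and is followed by stalk cells that form the lumen. Vascular endothelial growth factor, acting through its receptor VEGFR2, selects tip cells, and Notch signaling through the ligand Dll4 keeps neighboring cells from taking that position. Of the genes described here, Esm1 encodes endocan, a proteoglycan secreted by endothelial cells that respond to this growth factor. Apln encodes the secreted peptide apelin and Aplnr its G protein-coupled receptor. Robo4 and Unc5b encode guidance receptors, Robo4 of the Roundabout family and Unc5b of the netrin receptor family. Cd34 encodes a sialomucin that coats the endothelial surface and is also found on hematopoietic progenitors and some stromal cells, Plvap encodes the protein of the diaphragms that span fenestrae and caveolae, and Adgrl4 encodes an adhesion G protein-coupled receptor of endothelium.

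Tumors were grown by placing cells of the mouse liver cancer line BNL-MEA in the livers of BALB/c mice, so that all groups carried the same line in the same host strain. The libraries fell into 3 experiments, which the labels give as batches, each with its own vehicle group. The dose experiment compared vehicle (4 tumors) with regorafenib, an oral multikinase inhibitor whose targets include VEGFR2, at a low dose of 5 mg/kg/day (3 tumors) and a high dose of 20 mg/kg/day (3 tumors). The DC-101 experiment compared vehicle (4 tumors) with the same low dose (3 tumors) and with DC-101, an antibody against mouse VEGFR2 given at 800 µg on days 1, 3 and 5 (3 tumors). The anti-PD1 experiment compared vehicle, the low dose, an antibody against the immune checkpoint receptor PD1, and the low dose with that antibody, here called the combination (3 tumors each). Age and sex of the mice are not in the labels. All tumors came from 1 transplanted line, and the RNA was that of whole tumor tissue, which also holds liver, immune and stromal cells.

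Reads counted in genes ran from 16.8 to 27.7 M (megareads) per library. Values below are log2 CPM, counts per M reads, after scaling by the trimmed mean of M values (TMM) within each experiment, with groups as mean ± SD. Libraries differed in liver content: the mean log2 CPM of 12 hepatocyte genes ranged from 0.1 to 12.48, and 3 of the 4 vehicle tumors of the DC-101 experiment lay at 3.8 or below, whereas its 3 low dose tumors lay between 6.1 and 9.61. High dose replicate 1 stood apart, with the highest hepatocyte mean of the series (12.48), a TMM factor of 0.678, and the lowest Cd34 (6.53) and Aplnr (0.28) of all libraries. Endothelial cells were present throughout, since none of 20 pan-endothelial genes was at 0 in any library. In 36 pairs of replicates, counts differed far beyond sampling noise (chi-square per degree of freedom 12.9 or more), so each library counted as 1 sample.

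Positions are given in GRCm38. Esm1 (ENSMUSG00000042379.8) lies at chr13:113209659-113218098 on the plus strand, and Gzmk, on the other strand, overlaps it without sharing exonic bases. Apln (ENSMUSG00000037010.7) lies at chrX:48025146-48034853, minus strand, and Aplnr (ENSMUSG00000044338.9) at chr2:85136225-85139923, plus strand. Robo4 (ENSMUSG00000032125.20) lies at chr9:37401897-37415115, plus strand, and Unc5b (ENSMUSG00000020099.8) at chr10:60762593-60831581, minus strand. Cd34 (ENSMUSG00000016494.9) lies at chr1:194938819-194961279, plus strand, and shares 148 exonic bases with the antisense gene Gm16897, which had 0 to 215 counts per library against 1626 to 13121 for Cd34. Plvap (ENSMUSG00000034845.6) lies at chr8:71497765-71511752, minus strand, overlapped outside exons by Gtpbp3, and Adgrl4 (ENSMUSG00000039167.11) at chr3:151437887-151545086, plus strand.

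The promoters of the 4 genes that passed the test under the low dose are shown from RefSeq (GRCm38.p6), 250 bases before to 50 after the start of the gene, 5′ to 3′ on the strand of the gene. Capitals mark AGGAAG or CGGAAG on either strand (CTTCCT or CTTCCG when read on the other), the core bound by ETS factors, the family of the endothelial factor Erg.
Esm1, chr13:113209409-113209708, plus strand: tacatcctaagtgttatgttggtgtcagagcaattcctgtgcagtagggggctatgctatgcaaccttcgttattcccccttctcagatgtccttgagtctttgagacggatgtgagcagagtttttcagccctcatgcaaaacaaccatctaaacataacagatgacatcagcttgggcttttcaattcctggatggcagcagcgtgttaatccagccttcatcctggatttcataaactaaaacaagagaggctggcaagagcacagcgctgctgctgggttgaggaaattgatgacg
Robo4, chr9:37401722-37402021, plus strand: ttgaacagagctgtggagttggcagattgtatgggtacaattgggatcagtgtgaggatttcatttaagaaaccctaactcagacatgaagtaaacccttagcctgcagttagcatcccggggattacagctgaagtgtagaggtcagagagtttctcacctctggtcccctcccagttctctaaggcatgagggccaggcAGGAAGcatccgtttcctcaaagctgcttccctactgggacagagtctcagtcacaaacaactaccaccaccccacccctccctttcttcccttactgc
Adgrl4, chr3:151437632-151437931, plus strand: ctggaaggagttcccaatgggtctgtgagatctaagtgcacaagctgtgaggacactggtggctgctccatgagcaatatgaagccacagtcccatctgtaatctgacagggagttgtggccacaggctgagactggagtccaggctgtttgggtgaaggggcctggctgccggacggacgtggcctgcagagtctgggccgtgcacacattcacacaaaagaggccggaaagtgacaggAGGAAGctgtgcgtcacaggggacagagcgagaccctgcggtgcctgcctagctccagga
Cd34, chr1:194938571-194938870, plus strand: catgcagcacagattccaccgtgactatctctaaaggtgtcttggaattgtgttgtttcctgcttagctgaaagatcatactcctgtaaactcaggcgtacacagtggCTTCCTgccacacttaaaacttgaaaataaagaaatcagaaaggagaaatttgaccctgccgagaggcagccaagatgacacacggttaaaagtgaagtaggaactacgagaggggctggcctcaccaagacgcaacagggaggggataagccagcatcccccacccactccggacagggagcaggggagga
RefSeq entries matched 6 of the 8 genes. Distances are counted from the RefSeq start, which for Robo4 lies inside the gene as annotated above, so that its core falls between the annotated start and the RefSeq start. The core began 49 bases before the start in Robo4, 10 in Adgrl4, 142 in Cd34 and 113 in Apln, and these letters were not in the windows of Esm1 and Unc5b. Thus 4 of 6 windows held it, beside 46.5% of 32841 mouse promoters of the same length. The letters ACGTG on either strand, a form of the core of the hypoxia response element, were in 1 of 6 windows (Adgrl4, 72 bases before the start). They were in 19.6% of all promoters. The form GCGTG, which stands in the Esm1 window, was not counted.

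Per kilobase of exon and over the 11 vehicle tumors, Plvap had the highest median (48.2 CPM per kb, range 38.7 to 68.2), followed by Cd34 (41.5, range 29.2 to 58.3). Unc5b followed at 20.0 (range 4.68 to 24.5), then Apln at 14.3 (range 6.25 to 36.6) and Esm1 at 8.92 (range 3.89 to 20.5). Adgrl4 (4.38, range 1.53 to 11.3), Aplnr (2.94, range 1.17 to 8.97) and Robo4 (2.68, range 1.81 to 5.76) were lowest. Only Cd34 and Unc5b were neighbors in this order whose ranges did not overlap. On the same scale the general endothelial genes Eng, Cdh5 and Pecam1 had medians of 34.2, 20.3 and 11.3, so Plvap and Cd34 were at or above the level of Eng. Raw counts of the 8 genes ran from 20 (Aplnr, high dose replicate 1) to 13121 (Cd34, a low dose tumor of the DC-101 experiment).

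**Figure D1:**
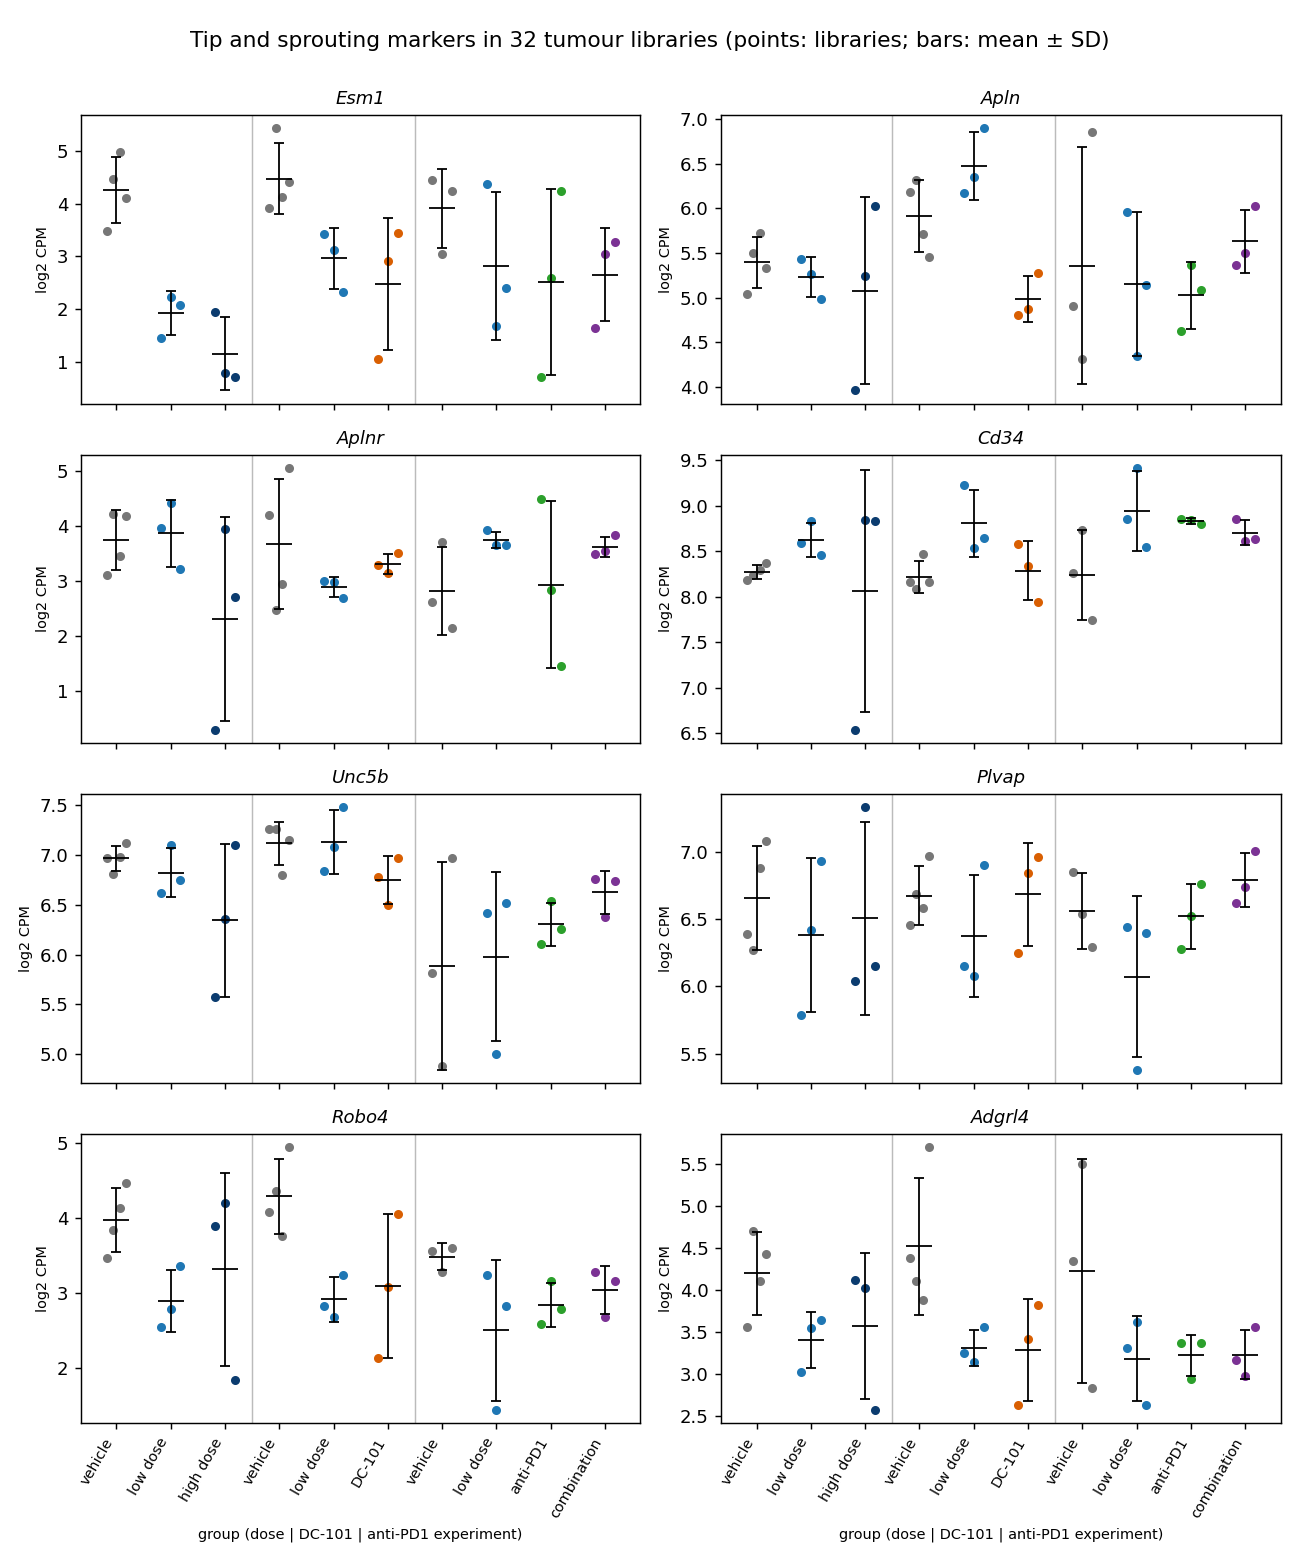
Level of each of the 8 genes (log2 CPM, y axis, a separate scale for each gene) in 32 tumor libraries (points) by group (x axis), with mean ± SD as bars and gray lines between experiments (from left: dose, DC-101, anti-PD1). Esm1 in the dose experiment falls from a vehicle mean of 4.26 to 1.92 at the low and 1.16 at the high dose, while Plvap overlaps between vehicle and treatment in every experiment.

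Vehicle and low dose tumors of all 3 experiments (11 and 9 libraries) were compared with the experiment as a covariate, which asks for changes that the low dose made in common. Of the 8 genes, 3 fell and 1 rose at an adjusted p under 0.05 (edgeR quasi-likelihood F-test, Benjamini-Hochberg over all genes tested). In the same test 1.77% of all 15562 genes passed, and 1.04% passed with a lower value. Esm1 changed by -1.60 on the log2 scale (SE 0.37, adjusted p = 0.0318) and lay below the vehicle mean of its own experiment in 8 of 9 low dose tumors. Robo4 changed by -1.13 (SE 0.22, adjusted p = 0.0105) and was below that mean in 9 of 9. Adgrl4 changed by -1.19 (SE 0.30, adjusted p = 0.0465), again below in 9 of 9. Cd34 moved the other way, by 0.55 (SE 0.14, adjusted p = 0.0437), and was above the vehicle mean in 9 of 9. The secreted marker, a guidance receptor and an adhesion receptor thus fell while the surface sialomucin rose. In these bulk tumors, fewer cells of a type and less RNA per cell cannot be told apart.

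The remaining 4 genes did not pass. Plvap had a log2 change of -0.31 (95% interval -0.64 to 0.03, adjusted p = 0.407). Unc5b had -0.04 (interval -0.46 to 0.37), Aplnr -0.08 (interval -0.77 to 0.61) and Apln -0.01 (interval -0.55 to 0.53), with adjusted p of 0.947, 0.939 and 0.991. None of these 4 intervals reached the changes of Robo4 or Esm1. The median over the 8 genes was -0.19, beside 0.03 over all genes tested.

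Robo4 passed the pooled test when any 1 of the 20 libraries was left out (adjusted p 0.00411 to 0.0293). The other calls lay near the threshold. Esm1 did not pass without dose experiment low dose replicate 1, 2 or 3, DC-101 experiment vehicle replicate 2, low dose replicate 2 or 3, or anti-PD1 experiment low dose replicate 3 (log2 change -1.62 to -1.45, adjusted p 0.0502 to 0.0702). Adgrl4 passed only without dose experiment vehicle 1 or low dose 3, DC-101 experiment vehicle 3, or anti-PD1 experiment vehicle 3 or low dose 2, and did not pass without any 1 of the other 15 (-1.25 to -0.97, adjusted p 0.0512 to 0.0964). Cd34 passed only without dose experiment low dose 3, DC-101 experiment vehicle 3 or low dose 3, or anti-PD1 experiment vehicle 2, vehicle 3 or low dose 3, and did not pass without any 1 of the other 14 (0.46 to 0.59, adjusted p 0.0534 to 0.101). With the hepatocyte mean as a covariate Robo4 alone passed (-1.06, adjusted p = 0.0255), with Esm1 at -1.57 (adjusted p = 0.0508), Adgrl4 at -1.10 (adjusted p = 0.0937) and Cd34 at 0.53 (adjusted p = 0.0818). No call held without the dose experiment (Robo4 -1.15, adjusted p = 0.152, and Esm1 -1.20, adjusted p = 0.353) or without the DC-101 experiment (Robo4 -0.97, adjusted p = 0.211, and Esm1 -1.62, adjusted p = 0.256), and limma-voom did not call Adgrl4 (-1.01, adjusted p = 0.0901). The low dose change was not called different between the 3 experiments for any of the 8 genes, nor for any gene tested (0%), with 1481 genes at an unadjusted p under 0.05. The smallest unadjusted p among the 8 was 0.0552, for Aplnr (adjusted p = 0.53).

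**Figure D2:**
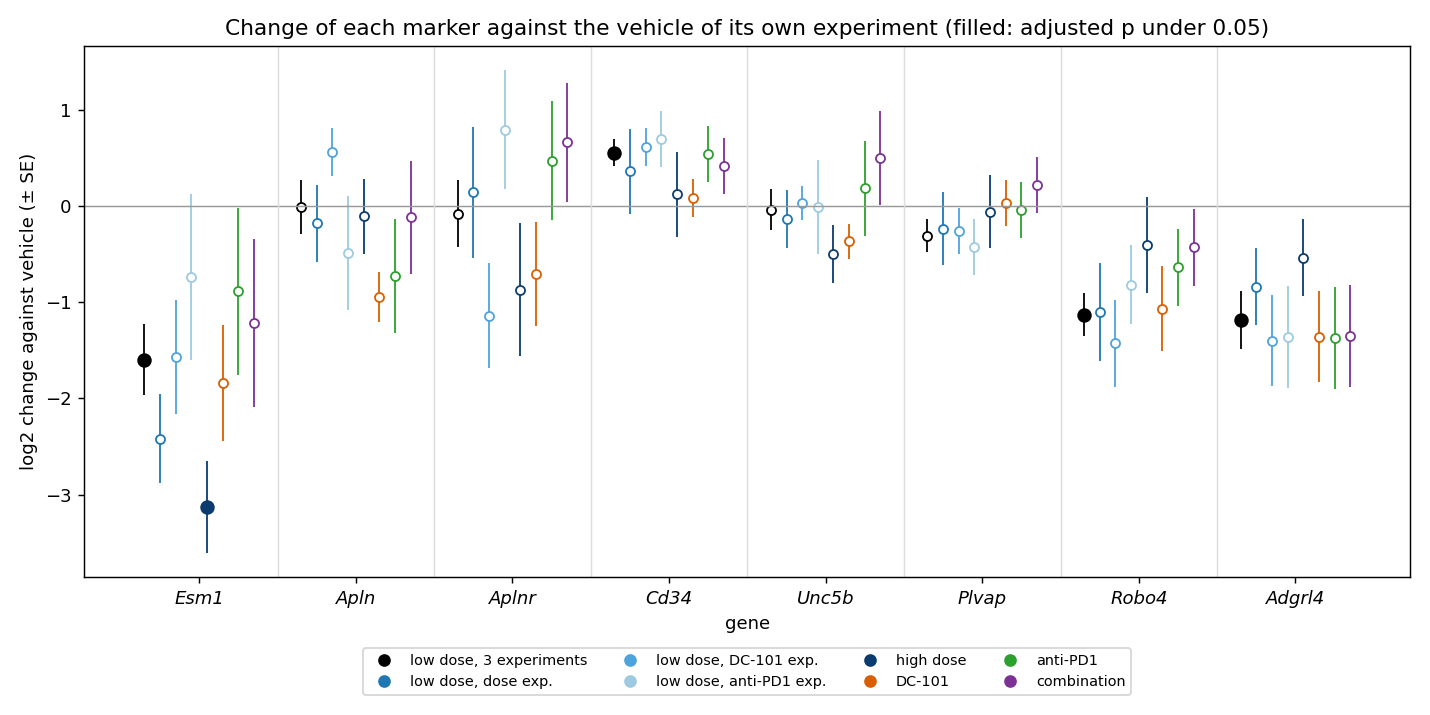
Log2 change against the vehicle of the same experiment (y axis, ± SE) of each gene (x axis), for the low dose over 3 experiments (black), the low dose in each experiment (blues), the high dose (dark blue), DC-101 (orange), anti-PD1 (green) and the combination (purple), with filled points at an adjusted p under 0.05. Filled points are Esm1 under the high dose (-3.13) and, under the pooled low dose, Esm1 (-1.60), Cd34 (0.55), Robo4 (-1.13) and Adgrl4 (-1.19).

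Esm1, the secreted marker, was at 3.48, 4.47, 4.97 and 4.11 log2 CPM in the 4 vehicle tumors of the dose experiment, at 1.45, 2.24 and 2.08 at the low dose and at 1.95, 0.79 and 0.72 at the high dose. Every treated tumor there was below every vehicle tumor, while the low and high dose tumors overlapped. In the DC-101 experiment the vehicle tumors were at 3.92, 5.43, 4.13 and 4.41, the low dose tumors at 3.43, 3.13 and 2.32, and the DC-101 tumors at 1.06, 2.92 and 3.45. Both treatments again lay wholly below vehicle and overlapped with each other. In the anti-PD1 experiment the vehicle tumors were at 4.44, 3.05 and 4.23, the low dose tumors at 4.37, 1.68 and 2.4, the anti-PD1 tumors at 0.72, 2.60 and 4.23, and the combination tumors at 1.65, 3.04 and 3.27. Here 1 low dose and 1 anti-PD1 tumor were at the vehicle level and no group was separate from vehicle. The SD of Esm1 was 1.39 among the low dose and 1.76 among the anti-PD1 tumors of that experiment, against 0.42 among the low dose tumors of the dose experiment.

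Apln, the peptide ligand, was at 5.04, 5.50, 5.72 and 5.33 in the vehicle tumors of the dose experiment, at 5.43, 5.27 and 4.99 at the low dose and at 3.96, 5.24 and 6.03 at the high dose, so that the groups overlapped. Tumors of the DC-101 experiment had Apln at 6.18, 6.32, 5.71 and 5.45 in vehicle, at 6.17, 6.35 and 6.90 at the low dose and at 4.81, 4.87 and 5.28 under DC-101. The 3 DC-101 tumors were below all vehicle and all low dose tumors, and the low dose tumors overlapped with vehicle. Tumors of the anti-PD1 experiment had Apln at 4.91, 4.31 and 6.85 in vehicle, at 5.96, 4.35 and 5.14 at the low dose, at 4.63, 5.37 and 5.08 under anti-PD1 and at 5.36, 5.50 and 6.03 under the combination. The vehicle group held both the lowest and the highest of these 12 values.

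Aplnr, the apelin receptor, was at 3.11, 4.21, 3.45 and 4.18 in the vehicle tumors of the dose experiment, at 3.97, 4.42 and 3.21 at the low dose and at 0.28, 3.94 and 2.7 at the high dose, where replicate 1, the tumor of highest liver content, was lowest. The DC-101 experiment gave 4.20, 2.47, 2.95 and 5.06 in vehicle, 3.00, 2.98 and 2.68 at the low dose and 3.28, 3.15 and 3.50 under DC-101. Its vehicle values ran from 2.47 to 5.06 and enclosed both treated groups, and the low dose lay wholly below DC-101. The anti-PD1 experiment gave 2.61, 3.70 and 2.14 in vehicle, 3.92, 3.66 and 3.66 at the low dose, 4.49, 2.84 and 1.45 under anti-PD1 and 3.48, 3.54 and 3.83 under the combination. No group was separate from vehicle. A vehicle tumor (3.70) lay within the low dose and the combination range, and the whole vehicle group lay within the anti-PD1 range.

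Robo4, the Roundabout receptor, was at 3.46, 3.84, 4.13 and 4.46 in the vehicle tumors of the dose experiment, at 2.54, 2.78 and 3.35 at the low dose and at 3.89, 4.20 and 1.84 at the high dose. All 3 low dose tumors were below vehicle, whereas 2 of 3 high dose tumors were within the vehicle range. Tumors of the DC-101 experiment had Robo4 at 4.08, 4.35, 3.76 and 4.94 in vehicle, at 2.82, 2.67 and 3.24 at the low dose and at 2.13, 3.07 and 4.05 under DC-101. The low dose was again separate from vehicle, and DC-101 was not. Tumors of the anti-PD1 experiment had Robo4 at 3.56, 3.27 and 3.60 in vehicle, at 3.23, 1.44 and 2.82 at the low dose, at 2.58, 3.15 and 2.78 under anti-PD1 and at 3.28, 2.67 and 3.16 under the combination. The low dose and anti-PD1 tumors were below all vehicle tumors, the highest of them by a narrow margin.

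Unc5b, the netrin receptor, was at 6.97, 6.81, 6.98 and 7.12 in the vehicle tumors of the dose experiment, at 6.62, 7.10 and 6.75 at the low dose and at 5.57, 6.36 and 7.10 at the high dose. The DC-101 experiment gave 7.26, 7.26, 6.80 and 7.15 in vehicle, 6.84, 7.08 and 7.48 at the low dose and 6.78, 6.50 and 6.97 under DC-101. The anti-PD1 experiment gave 5.81, 4.88 and 6.97 in vehicle, 6.42, 5.00 and 6.52 at the low dose, 6.11, 6.54 and 6.26 under anti-PD1 and 6.76, 6.38 and 6.74 under the combination. All groups overlapped with their vehicle. The vehicle SD was 1.05 in the anti-PD1 experiment against 0.13 in the dose experiment.

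Adgrl4, the adhesion receptor, was at 3.55, 4.70, 4.10 and 4.43 in the vehicle tumors of the dose experiment, at 3.02, 3.54 and 3.64 at the low dose and at 4.12, 4.02 and 2.57 at the high dose. Of the 3 low dose tumors 2 were below the lowest vehicle tumor and 1 was within the vehicle range. Tumors of the DC-101 experiment had Adgrl4 at 4.38, 4.11, 3.88 and 5.70 in vehicle, at 3.24, 3.14 and 3.55 at the low dose and at 2.62, 3.41 and 3.82 under DC-101, both treatments wholly below vehicle. Tumors of the anti-PD1 experiment had Adgrl4 at 4.34, 5.50 and 2.83 in vehicle, at 3.31, 3.61 and 2.62 at the low dose, at 3.36, 2.94 and 3.36 under anti-PD1 and at 3.16, 2.97 and 3.55 under the combination. All 3 treated groups there had means between 3.18 and 3.23, and vehicle replicate 3 (2.83) was within the low dose range and below every anti-PD1 and combination tumor.

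Cd34, the sialomucin, was at 8.18, 8.24, 8.29 and 8.37 in the vehicle tumors of the dose experiment, at 8.59, 8.83 and 8.46 at the low dose and at 6.53, 8.84 and 8.83 at the high dose. All low dose tumors were above vehicle, and so were 2 of 3 high dose tumors, replicate 1 being the exception. The DC-101 experiment gave 8.16, 8.08, 8.47 and 8.16 in vehicle, 9.23, 8.54 and 8.65 at the low dose and 8.58, 8.34 and 7.94 under DC-101. The low dose was separate from vehicle, and DC-101 overlapped with it. The anti-PD1 experiment gave 8.26, 8.73 and 7.74 in vehicle, 8.85, 9.42 and 8.55 at the low dose, 8.86, 8.84 and 8.80 under anti-PD1 and 8.86, 8.61 and 8.64 under the combination. Only the anti-PD1 tumors were all above vehicle, with an SD of 0.03.

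Plvap, the diaphragm protein, was at 6.39, 6.27, 6.88 and 7.08 in the vehicle tumors of the dose experiment, at 5.79, 6.42 and 6.93 at the low dose and at 6.04, 7.33 and 6.15 at the high dose. Tumors of the DC-101 experiment had Plvap at 6.46, 6.69, 6.58 and 6.97 in vehicle, at 6.15, 6.08 and 6.90 at the low dose and at 6.25, 6.84 and 6.96 under DC-101. Tumors of the anti-PD1 experiment had Plvap at 6.85, 6.54 and 6.29 in vehicle, at 6.44, 5.38 and 6.40 at the low dose, at 6.28, 6.52 and 6.76 under anti-PD1 and at 6.62, 6.74 and 7.01 under the combination. Every treated group overlapped with its vehicle, although 7 of the 9 low dose tumors were below their vehicle mean.

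Within the dose experiment, the low dose was compared with vehicle on 3 and 4 tumors. None of the 8 genes passed at an adjusted p under 0.05, as was true of all genes tested (0%), with 817 genes and 1 of the 8 at an unadjusted p under 0.05. That gene was Esm1, with a log2 change of -2.42 (SE 0.46, unadjusted p = 0.000466, adjusted p = 0.398), which DESeq2 called (adjusted p = 7.72e-05) and limma-voom did not. Esm1 and Robo4 were lower in all low dose tumors than in any vehicle tumor, as were 6.99% of genes, and Cd34 was higher in all, as were 6.92%. The log2 changes were -1.10 for Robo4, -0.84 for Adgrl4 and 0.36 for Cd34, with adjusted p of 0.991 each.

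At the high dose Esm1 fell by 3.13 on the log2 scale, 8.78-fold (SE 0.48, adjusted p = 0.0187, edgeR), and was the 1 gene of the 8 to pass. In that comparison 15.6% of 16525 genes passed and 6.82% passed with a lower value. Esm1 was also the 1 gene of the 8 with every high dose tumor below every vehicle tumor, as seen in 16.6% of genes. The other changes were -0.87 for Aplnr, -0.54 for Adgrl4, -0.50 for Unc5b, -0.41 for Robo4, -0.11 for Apln, -0.06 for Plvap and 0.12 for Cd34, with adjusted p from 0.242 to 0.919. The Esm1 change kept its size but not its call without vehicle replicate 2, 3 or 4 (-3.21 to -2.85, adjusted p 0.0501 to 0.0601) or when only vehicle and high dose tumors were fitted (-3.13, adjusted p = 0.0637). Without high dose replicate 1, the tumor with the most liver RNA, Esm1 was at -3.64 (adjusted p = 0.0125) and Cd34 passed as higher (0.58, adjusted p = 0.0375). Without high dose replicate 3, in which Robo4 and Adgrl4 were lowest, Unc5b passed as lower (-0.99, adjusted p = 0.0166). With the hepatocyte mean as a covariate the Esm1 change was -3.68 (adjusted p = 0.0203), and with the pan-endothelial mean -2.97 (adjusted p = 0.0153).

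Both doses were also compared directly. None of the 8 genes differed at an adjusted p under 0.05, with none at an unadjusted p under 0.05, while 4.22% of all genes passed and 4842 had an unadjusted p under 0.05. DESeq2 and limma-voom also called none of the 8. Esm1 was lower at the high dose by a log2 value of -0.72 (95% interval -1.63 to 0.19, adjusted p = 0.304), and Robo4 was higher by 0.69 (interval -0.35 to 1.73, adjusted p = 0.385). Without high dose replicate 3, Robo4 (1.09, adjusted p = 0.0453) and Unc5b (-0.85, adjusted p = 0.043) passed, so that both values depended on that tumor.

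The DC-101 experiment set the kinase inhibitor beside an antibody that blocks VEGFR2 alone. None of the 8 genes passed under the low dose, where 0.0248% of 16138 genes did, and none passed under DC-101, where 0% did. At an unadjusted p under 0.05 there were 4 of the 8 genes in each comparison, and 2766 and 2131 genes in all. Under the low dose, Esm1 (-1.57, SE 0.59), Robo4 (-1.43, SE 0.45) and Adgrl4 (-1.40, SE 0.47) were wholly below vehicle, as were 9.48% of genes, and Cd34 (0.61, SE 0.20) was wholly above, as were 6.93%. DESeq2 called Robo4 (adjusted p = 0.0331), Adgrl4 (adjusted p = 0.0433) and Cd34 (adjusted p = 0.04) in this comparison. Under DC-101, Esm1 (-1.84, SE 0.60), Adgrl4 (-1.36, SE 0.47) and Apln (-0.95, SE 0.26) were wholly below vehicle, as were 8.19% of genes, and Robo4 was at -1.07 (SE 0.44). DESeq2 called Esm1 (adjusted p = 0.0492) and Apln (adjusted p = 0.0348), whereas the quasi-likelihood test gave 0.325 and 0.309, and limma-voom called none of the 8 under either treatment. Cd34 (0.08, 95% interval -0.32 to 0.48) and Plvap (0.03, interval -0.44 to 0.50) had the smallest changes under DC-101. Of the 20 pan-endothelial genes none passed in either comparison, with medians of -1.34 under the low dose and -1.25 under DC-101 and 13 and 12 of 20 lower at an unadjusted p under 0.05.

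No hepatocyte gene passed under either treatment in this experiment, but liver content was not balanced. The hepatocyte mean was 2.84 ± 3.42 in vehicle, 8.06 ± 1.79 at the low dose and 7.07 ± 4.58 under DC-101, although single tumors overlapped between groups. The hepatocyte mean was at 0.1 to 7.27 in vehicle, 6.1 to 9.61 at the low dose and 1.83 to 10.35 under DC-101, with summed levels of 22.2 to 5750 CPM in vehicle against 1780 to 22200 and 74.7 to 31000. No hepatocyte gene was at 0 in any of these tumors. With that mean as a covariate the changes of Esm1 were -2.34 under the low dose and -2.72 under DC-101, and those of Robo4 were -1.85 and -1.51, all larger than without it. Aplnr instead moved from -0.71 to 0.06 under DC-101. Since liver content differed between the groups, this fit separates it from treatment only in part.

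Comparing the low dose with DC-101 directly, none of the 8 genes passed and 0% of all genes did, with 2 of the 8 and 1364 genes at an unadjusted p under 0.05. Apln differed most. It was higher under the low dose than under DC-101 by 1.51 on the log2 scale, 2.84-fold (95% interval 0.97 to 2.04, unadjusted p = 0.000332, adjusted p = 0.389), and DESeq2 (adjusted p = 0.000231) but not limma-voom called it. All 3 low dose tumors were above all 3 DC-101 tumors in Apln, as in 5.48% of genes, and all were below in Aplnr, as in 5.94%. Ligand and receptor thus lay on opposite sides in these 6 tumors, with Aplnr at -0.43 (interval -1.55 to 0.69). Cd34 was higher by 0.53 (unadjusted p = 0.0381, adjusted p = 0.559). For Esm1 (0.26, interval -0.93 to 1.45), Robo4 (-0.36, interval -1.27 to 0.55) and Adgrl4 (-0.04, interval -1.0 to 0.91) the intervals did not settle whether the treatments differed. Of 12 hypoxia genes, which are induced by low oxygen, none passed and 1 had an unadjusted p under 0.05 in this comparison. Their mean level was 6.61 to 7.53 under the low dose and 5.75 to 7.06 under DC-101, with a median log2 change of 0.84, and its part in the Apln difference was not tested.

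In the anti-PD1 experiment none of the 8 genes passed in any comparison made. The combination was not compared with the low dose alone, so what the antibody adds to regorafenib was not tested. The share of all genes passing was 0% for the low dose, 0% for anti-PD1 and 0% for the combination against vehicle, and 0% for the combination against anti-PD1, with 1964, 2269, 1362 and 1443 genes at an unadjusted p under 0.05. DESeq2 and limma-voom called none of the 8 here. Adgrl4 had nearly the same value in all 3 treated groups, -1.36 under the low dose, -1.37 under anti-PD1 and -1.35 under the combination (SE 0.53 each, unadjusted p 0.0257 to 0.0267), all measured against the same 3 vehicle tumors. Robo4 was wholly below vehicle under the low dose (-0.82, SE 0.41), as were 7.36% of genes, and under anti-PD1 (-0.64, SE 0.40), as were 9.2%. Cd34 was wholly above vehicle under anti-PD1 (0.54, SE 0.29), as were 7.42% of genes, and was at 0.69 (SE 0.29) under the low dose and 0.41 (SE 0.29) under the combination. Esm1 had values of -0.74, -0.89 and -1.22 under the low dose, anti-PD1 and the combination, with SEs of 0.86 to 0.87. The 20 pan-endothelial genes had medians of -1.04, -0.62 and -0.65 in the same order, with 14, 6 and 8 of 20 lower at an unadjusted p under 0.05 and none passing.

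Between the combination and anti-PD1 the smallest adjusted p of the 8 genes was 0.804, for Apln (0.60, 95% interval -0.56 to 1.77). None of the 8 had an unadjusted p under 0.05 in this comparison. Adgrl4 was at 0.01 (interval -1.02 to 1.04), Cd34 at -0.13 (interval -0.70 to 0.45) and Esm1 at -0.34 (interval -2.03 to 1.36). Robo4 was at 0.21 (interval -0.58 to 1.0). Whether the low dose change differed in the presence of the antibody was not tested, since no interaction of low dose and antibody was fitted. Hepatocyte means here were 8.19 to 8.87 in vehicle, 4.79 to 7.19 at the low dose, 4.66 to 6.26 under anti-PD1 and 6.66 to 9.53 under the combination, so that the group mean was highest in vehicle (8.49) although 1 combination tumor was higher. 

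A further 12 genes of tip cells and sprouting were examined in the same pooled low dose test. Of these, 6 passed, all lower, and the median log2 change was -1.10. The largest were Kcne3, a potassium channel subunit (-1.92, SE 0.26, adjusted p = 0.000457), Trp53i11 (-1.89, SE 0.25, adjusted p = 0.000347), Nid2, a basement membrane protein (-1.69, SE 0.21, adjusted p = 0.000212), and Dll4, the Notch ligand of tip cells (-1.55, SE 0.18, adjusted p = 0.000115). Esm1 thus changed by about as much as Dll4. At the high dose, where 15.6% of all genes passed, 4 of the 12 fell and 1 rose. Kcne3 (-4.08), Dll4 (-2.12) and Trp53i11 (-2.08) were among those that fell, and Adm, which encodes adrenomedullin, rose (2.33). None of the 12 passed in the DC-101 or anti-PD1 experiments, where the list medians were -1.38 under the low dose and -1.30 under DC-101, then -1.20 under the low dose, -0.40 under anti-PD1 and -0.96 under the combination.

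Of 10 ligands, co-receptors and other binding partners of the 8 proteins, 9 were tested and Apela, the second ligand of Aplnr, had too few reads. Robo1, another Roundabout receptor, was the 1 partner that passed under the pooled low dose (-1.33, SE 0.31, adjusted p = 0.0346). The netrin Ntn1 was at 0.63 (SE 0.20, adjusted p = 0.104) and Flrt2, a ligand of Unc5 receptors, at 0.57 (SE 0.25, adjusted p = 0.273). The Slit ligands Slit2 (-0.18) and Slit3 (0.04) did not pass.

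Most general endothelial genes moved with the 3 genes that fell. Of 20 pan-endothelial genes, 12 passed as lower under the pooled low dose, beside 1.04% of all genes, and the list median was -1.19. The largest changes were in Cldn5 (-2.45, SE 0.28), a tight junction protein, Sox17 (-1.74, SE 0.19), Flt1, the VEGFR1 gene (-1.61, SE 0.19), and Erg (-1.42, SE 0.25). Ecscr (-0.12, SE 0.15), Eng (0.11, SE 0.17) and S1pr1 (-0.41, SE 0.16), which had the highest vehicle medians of the list per kilobase of exon, did not pass. The mean log2 CPM of the 20 genes was below the vehicle mean of its experiment in 9 of 9 low dose tumors, by -1.58 to -0.59, median -1.06. In the 3 vehicle groups it ran from 4.0 to 5.28 and in the 3 low dose groups from 2.69 to 3.86, with summed levels of 527 to 1080 CPM against 310 to 549. With this mean as a covariate none of the 8 genes passed, with Robo4 at 0.00, Adgrl4 at 0.23, Cd34 at 0.36 and Esm1 at -1.08, but the mean and the treatment cannot be told apart in that fit, since the ranges of the mean in vehicle and low dose tumors do not overlap. Of 8 pericyte genes 1 passed, Kcnj8, lower (-1.76), with a list median of -0.77. None of 8 sinusoidal endothelial genes, 12 hepatocyte genes, 7 tested leukocyte genes or 12 hypoxia genes passed. Of the leukocyte genes 4 were higher at an unadjusted p under 0.05 (median 0.38), and their medians in the 3 experiments were 0.56, 0.33 and 0.32. Medians of the other lists differed in sign between experiments, at 0.32, 1.16 and -2.47 for the sinusoidal, 1.57, 3.17 and -1.77 for the hepatocyte and -0.55, 0.35 and -0.91 for the hypoxia genes (first the dose, then the DC-101, then the anti-PD1 experiment).

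At the high dose, calls in the other marker lists stand beside 15.6% of all genes. Of 8 leukocyte genes, 5 passed as lower, among them Itgam (-2.80) and Csf1r (-1.68), both of myeloid cells, and 1 as higher, the T cell gene Cd3e (1.86). Of 12 hypoxia genes, 4 passed as higher, led by Egln3 (1.67) and Vegfa (1.12), the gene of the growth factor itself. Of 20 pan-endothelial genes, 3 passed as lower, Cldn5 (-1.86), Emcn (-1.86) and Flt1 (-1.71). Of 12 hepatocyte genes, 1 passed as higher, and all 12 had an unadjusted p under 0.05 with a median of 3.82, and of 8 pericyte genes (median 0.59, range -0.69 to 2.37) Rgs5 (2.37) passed as higher. The part of the leukocyte, hypoxia and pericyte lists in the Esm1 change was not tested.

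The 8 genes were also expressed relative to the mean of the 20 pan-endothelial genes in the same library, which differ from the 8 and are not a count of cells. On this scale Cd34 lay above the vehicle mean of its experiment in 9 of 9 low dose tumors (median difference 1.43), as did Apln (1.10), Unc5b (1.01) and Plvap (0.65). Aplnr did so in 8 of 9 (1.29). Adgrl4 was above in 3 of 9 (median -0.11), Robo4 in 2 of 9 (median -0.23) and Esm1 in 2 of 9 (median -0.65, range -1.74 to 1.11). The reference itself fell in 9 of 9 low dose tumors (median -1.06), so a gene steady in log2 CPM lies higher on this scale by construction. Robo4 and Adgrl4 stayed near the endothelial mean, and Esm1 varied most. Because the reference fell, these differences carry no test.

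**Figure D3:**
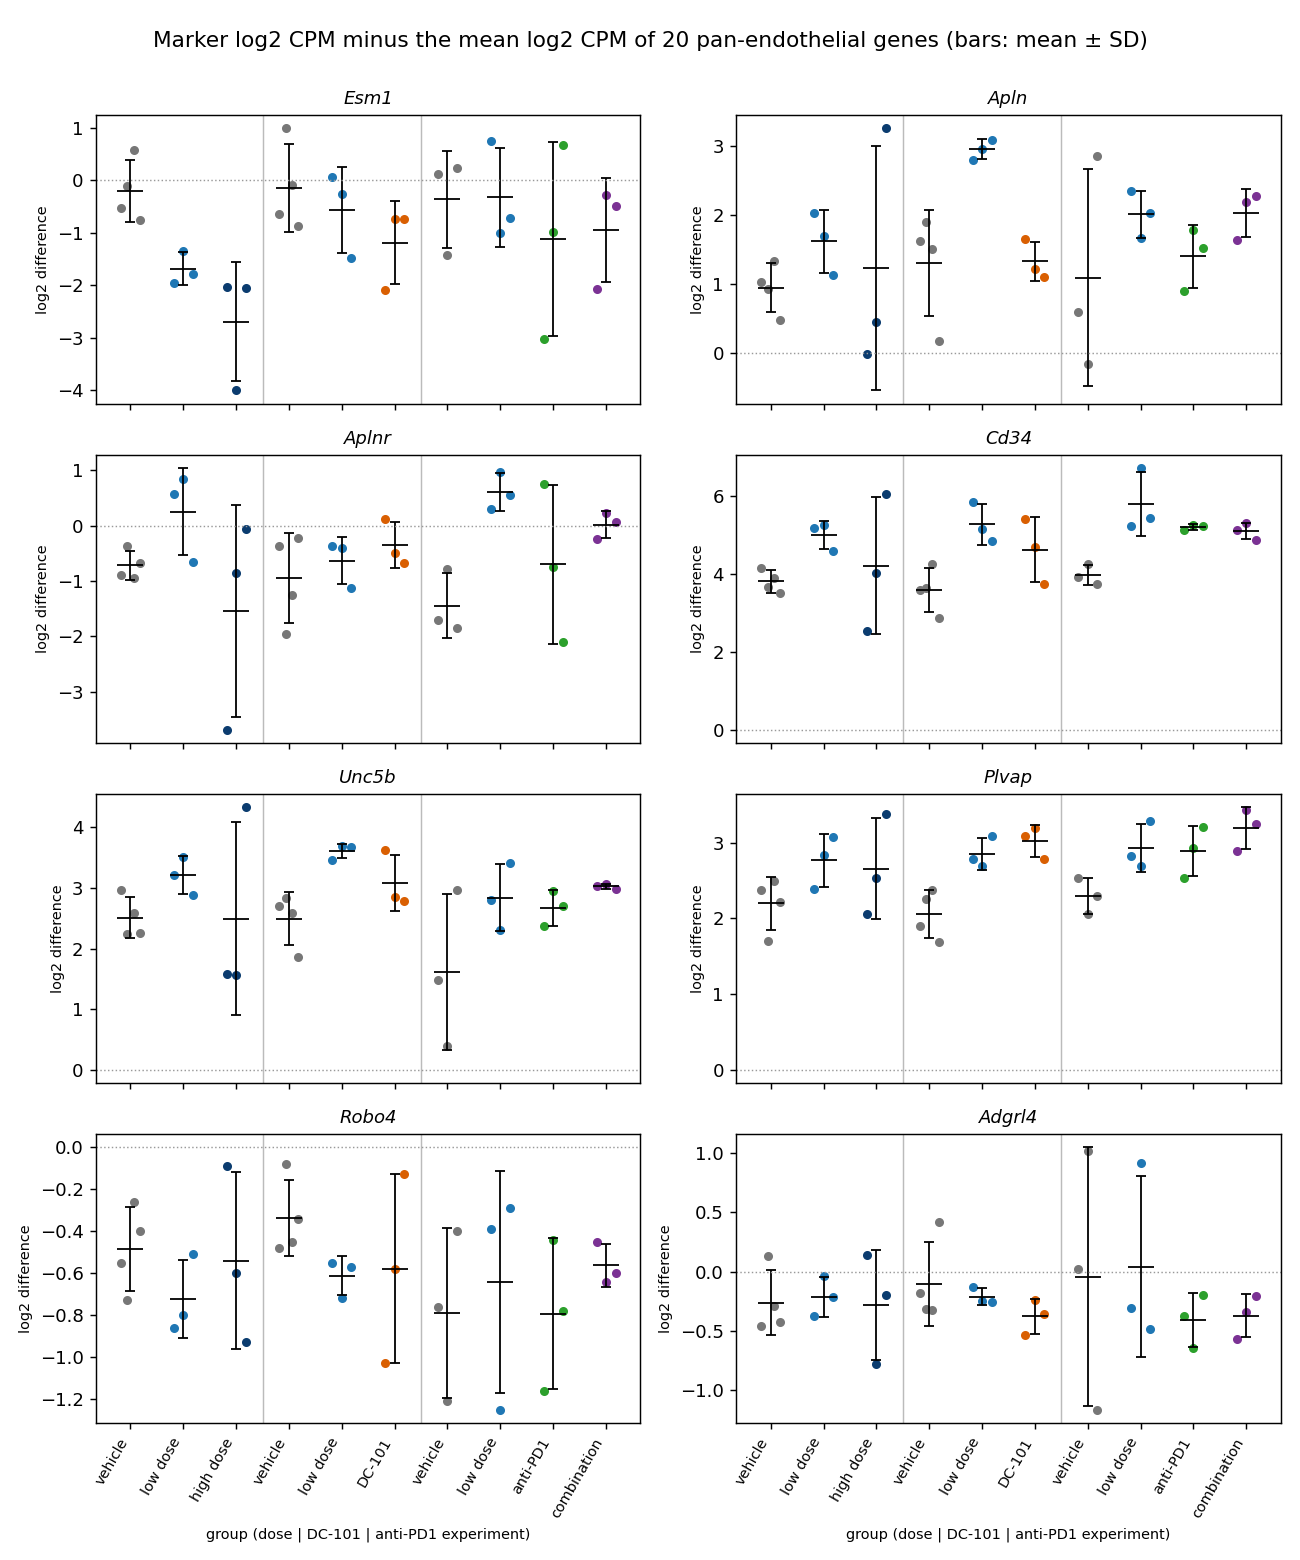
Log2 CPM of each gene minus the mean log2 CPM of 20 pan-endothelial genes in the same library (y axis), by group (x axis), with libraries as points and mean ± SD as bars. In low dose tumors Cd34, Apln, Unc5b and Plvap lie above the mean of their vehicle in 9 of 9, Robo4 and Esm1 in 2 of 9. The mean subtracted fell under the low dose, so a gene steady in log2 CPM lies higher here by construction.

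Across the 32 libraries, with each experiment centered on its own mean, the 8 genes did not form 1 group. Robo4 followed the pan-endothelial mean most closely (Pearson r = 0.93), then Adgrl4 (0.82), Plvap (0.62) and Esm1 (0.56). Aplnr (0.23), Unc5b (0.03) and Apln (0.00) had values near 0 or low, and Cd34 a negative one (-0.37). With each of the 10 groups centered on its own mean, which takes out treatment differences, the values were 0.89 for Robo4, 0.70 for Adgrl4, 0.69 for Plvap, 0.37 for Aplnr, 0.22 for Esm1, -0.05 for Unc5b, -0.12 for Apln and -0.15 for Cd34. With the experiments centered, Apln and Unc5b varied together (0.77, and 0.86 within groups), Apln also with the hypoxia genes (0.61, and 0.67 within groups), whereas Apln and its receptor Aplnr were at 0.03. Aplnr and Cd34 were at 0.50, Robo4 and Cd34 at -0.52, and Robo4 and Adgrl4 at 0.66. Esm1 had its highest value with the other tip and sprouting genes (0.80), and Plvap with the pericyte genes (0.70). All of these are descriptions over libraries that share treatments, scaling and tissue content, and carry no test.

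**Figure D4:**
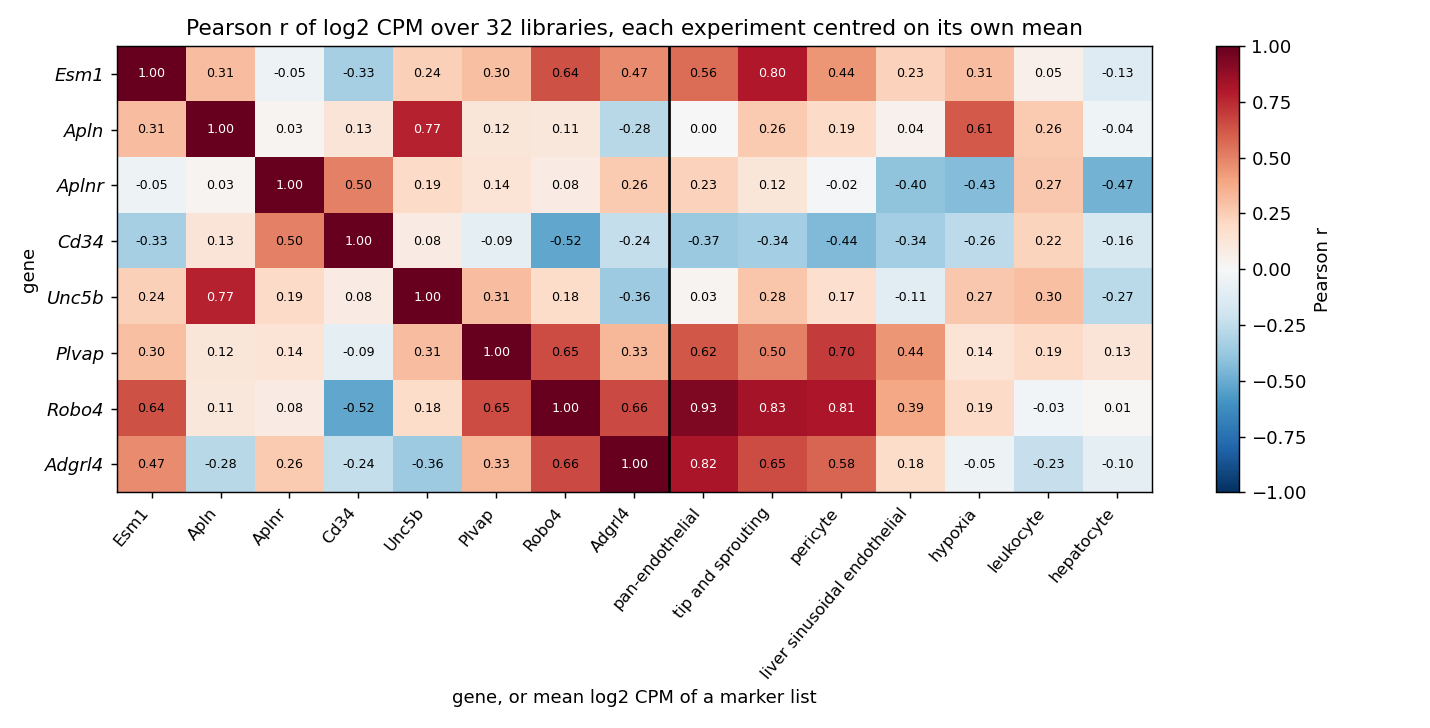
Pearson r of log2 CPM over 32 libraries, each experiment centered on its own mean, between the 8 genes (rows) and the 8 genes and 7 marker lists (columns), on a color scale from -1 to 1. Robo4 and Adgrl4 stand at 0.93 and 0.82 with the pan-endothelial mean, Cd34 at -0.37, and Apln and Unc5b at 0.77 with each other.

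Genes with the most similar pattern differed by member in the same way. Among the other expressed genes, those nearest to Robo4 were Erg (r = 0.95), Adgrf5 (0.95) and Plekhg1 (0.94), and those nearest to Adgrl4 were Ldb2 (0.84), Clec1a (0.83) and Clec14a (0.83). Nearest to Esm1 were Dll4 (0.82), Stc1 (0.81) and Flt1 (0.79). The first of each trio is a known endothelial transcription factor, a transcriptional cofactor and the Notch ligand, respectively. Unc5b was nearest to Lamb1 (0.91), Plcb3 (0.91) and Myadm (0.90), Apln to Gfod1 (0.89), Sec24b (0.85) and Adam8 (0.85), and Cd34 to Hmgn3 (0.89), Oxct1 (0.85) and Armcx2 (0.82). Aplnr was nearest to Ccnyl1 (0.80), C1qtnf6 (0.78) and Arxes2 (0.77), and Plvap, with the lowest values, to Ccn5 (0.72), Lmcd1 (0.69) and Srpx2 (0.69). The mean of the 8 genes was nearest to Cdh5, which encodes VE-cadherin (0.87), Inhbb (0.87), Kit (0.84), Ptprm (0.81) and Flt1 (0.81).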

How the data were processed

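The authors trimmed reads of a stranded mRNA library (cutadapt 2.4), aligned them to GRCm38 with STAR 2.7.2a and deposited its raw counts per Gencode gene, 1 table for each experiment. Which strand column was taken is not given in the sources used here. Groups came from the labels. Low genes were removed with filterByExpr (at least 10 counts in enough libraries, at least 15 in total), and the others scaled by TMM and tested with edgeR 4.0.16 (robust quasi-likelihood F-test, R 4.3.3), with Benjamini-Hochberg adjustment over all genes tested and a threshold of 0.05. Pooled fits had experiment as a term. Log2 CPM used a prior count of 2. The SE is the log2 change divided by the root of F. Intervals are the change plus or minus the SE times the normal quantile for 95%. With so few libraries they are narrower than the F-test implies. Under the low dose in the DC-101 experiment, that of Apln was 0.07 to 1.04 although the F-test gave an unadjusted p of 0.0507. limma 3.58.1 (voom) and DESeq2 1.42.0 were alternatives, beside other scaling, no filter, covariates, left-out libraries and a replicate block. Same-numbered libraries did not deviate together (12 of 36 pairs had a correlation above 0.1), so the numbers were not used as pairs. The code was tested on simulated data. The labels do not say whether replicates came from separate mice, so p-values measure the spread between these libraries. The 8 genes and all lists were chosen with earlier results of these data known. All 8 are named throughout. Of the pan-endothelial genes, Ecscr, Eng and S1pr1 are named although they did not pass. Of each other list, up to 4 of the called genes with the largest log2 change are named (of the partners, some that did not pass are also named, and 1 is not reported here), and the 3 genes of highest correlation with each of the 8 (5 with their mean), among genes whose mean log2 CPM reached 1.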

Additional observations from a re-analysis of the deposited data

How the results depend on the processing

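Over 88 log2 changes and 1488 alternatives, 1303 kept direction and call, 62 lost a call, 12 gained one and 111 changed sign. All sign changes were in values that had not passed the test, except Adgrl4 under the pooled low dose with the pan-endothelial mean as a covariate, and the causes were not tested. The 4 calls of the pooled low dose became 1 with no filter or the hepatocyte mean as a covariate, 2 with all 32 libraries, and 0 with the pan-endothelial mean or without the dose or the DC-101 experiment (fewer samples), and 1 to 4 with 1 library left out. The 1 call at the high dose became 0 with the replicate block (Esm1 -3.14, adjusted p = 0.192) or only the groups compared, and 0 to 2 with 1 library left out. The 0 calls between doses became 0 to 2 likewise. DESeq2 called 1 of the 8 genes under the low dose in the dose experiment and 3 in the DC-101 experiment, 2 under DC-101 and 1 between the low dose and DC-101, and 1 passed under the low dose in the dose experiment when only the groups compared were fitted, against 0 each in the main analysis. The replicate block kept the 4 pooled calls (Esm1 -1.69, Adgrl4 -0.86, Robo4 -1.02 and Cd34 0.55), and 9 of 30 libraries correlated best with their own number.

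Sign changes follow by alternative. With limma-voom these were Apln 0.09 and Aplnr 0.09 (low dose, pooled), Cd34 -0.23 (high dose), Apln -0.09 (high against low dose), Adgrl4 0.04 (low dose against DC-101), Unc5b 0.10 (low dose, anti-PD1 experiment), Apln 0.27 (combination) and Esm1 0.16 (combination against anti-PD1). With the replicate block these were Apln 0.01 and Aplnr 0.30 (low dose, pooled), Cd34 -0.02 and Plvap 0.03 (high dose), Apln -0.14 (high against low dose), Aplnr 0.06 (DC-101), Unc5b 0.06 (low dose, anti-PD1 experiment) and Apln 0.10 (combination). With the dose experiment left out these were Apln 0.06 (low dose, pooled). With the anti-PD1 experiment left out these were Apln 0.20 (low dose, pooled). With the hepatocyte mean as a covariate these were Aplnr 0.26 (low dose, pooled), Apln 0.02 and Unc5b 0.01 (low dose, dose experiment), Apln 0.35 (high dose), Robo4 -0.04 and Adgrl4 -0.31 (high against low dose), Aplnr 0.06 and Plvap -0.22 (DC-101), Unc5b 0.02 (low dose, anti-PD1 experiment) and Aplnr -0.47 (anti-PD1). With the pan-endothelial mean as a covariate these were Aplnr 1.30, Unc5b 0.10, Plvap 0.51 and Adgrl4 0.23 (low dose, pooled), Plvap 0.27 (low dose, dose experiment), Plvap 0.26 and Robo4 0.10 (high dose), Plvap -0.01 and Adgrl4 -0.01 (high against low dose), Aplnr 0.33, Plvap 0.42, Robo4 0.12 and Adgrl4 0.38 (low dose, DC-101 experiment), Aplnr 0.62, Cd34 -0.33, Robo4 0.12 and Adgrl4 0.15 (DC-101), Adgrl4 0.23 (low dose against DC-101), Esm1 0.25, Unc5b 0.11, Plvap 0.39 and Robo4 0.36 (low dose, anti-PD1 experiment), Plvap 0.46 and Robo4 0.10 (anti-PD1) and Robo4 0.31 (combination). With the DC-101 experiment left out these were Aplnr 0.44 (low dose, pooled). With total count scaling these were Plvap -0.01 (DC-101) and Unc5b 0.02 (low dose, anti-PD1 experiment). With no filter these were Unc5b 0.03 (low dose, anti-PD1 experiment). With 1 library left out, the ranges of changes that crossed 0 were Apln -0.13 to 0.31, Aplnr -0.22 to 0.14 and Unc5b -0.14 to 0.13 (low dose, pooled), Aplnr -0.14 to 0.42 (low dose, dose experiment), Apln -0.71 to 0.30, Cd34 -0.19 to 0.58 and Plvap -0.58 to 0.16 (high dose), Apln -0.53 to 0.47, Cd34 -0.55 to 0.22 and Plvap -0.36 to 0.49 (high against low dose), Unc5b -0.16 to 0.17 (low dose, DC-101 experiment), Cd34 -0.05 to 0.24 and Plvap -0.11 to 0.24 (DC-101), Esm1 -0.21 to 0.77, Robo4 -0.75 to 0.26 and Adgrl4 -0.34 to 0.26 (low dose against DC-101), Apln -0.98 to 0.66 and Unc5b -0.37 to 0.71 (low dose, anti-PD1 experiment), Apln -1.12 to 0.42, Aplnr -0.66 to 1.05, Unc5b -0.18 to 0.90 and Plvap -0.17 to 0.09 (anti-PD1), Apln -0.52 to 1.02 (combination) and Esm1 -0.83 to 0.88, Aplnr -0.26 to 1.33 and Adgrl4 -0.17 to 0.14 (combination against anti-PD1). Calls over all genes also moved with the alternatives, from 0 to 892 for the pooled low dose (276 in the main analysis) and from 1 to 7030 for the high dose (2582).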
